A study of Mus musculus with 30 samples.

Results

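The genes described here encode the factors that load ribosomes onto mRNA and move them along it: the eukaryotic translation initiation factors (eIFs, gene symbols Eif1 to Eif6) and elongation factors (eEFs, Eef1 and Eef2). They were taken by symbol from the deposited table of normalized expression, leaving out the eIF2 kinases, the eEF2 kinase and pseudogenes, which gave 59 of the 39253 genes counted. The rule itself used names alone, but the normalized table held only 13087 genes, so membership also depended on which genes that table kept. All 59 also passed the filter on low counts used here and were tested. The count table held 8 further symbols of the family that were not in the normalized table, and each was at or under 2.88 CPM (reads of a gene scaled to a fixed library size, by TMM) in every library.

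The cells were 4T1, a line from a mouse mammary carcinoma, and their RNA was sequenced in bulk. They had been kept for 48 or 72 h with small extracellular vesicles (sEVs) in medium whose serum had been depleted of vesicles. The vesicles came from primary Ly6G+ neutrophils of wild-type female BALB/c mice that had themselves been exposed for 48 h to 27-hydroxycholesterol (27HC, 10 µM), an oxysterol made from cholesterol, or to its solvent DMSO, and were isolated with a commercial kit. Cells given vesicles from 27HC-treated neutrophils partly came off the dish, so that non-adherent and adherent fractions were sequenced separately, while DMSO-sEV cells were taken as adherent cells. The groups were non-adherent 27HC-sEV cells at 48 h (5 libraries) and 72 h (4 libraries), adherent 27HC-sEV cells at 48 and 72 h (5 each), and adherent DMSO-sEV cells at 48 and 72 h (5 each). Every group therefore received neutrophil vesicles, and no cells without vesicles were analysed here. A library of the non-adherent group at 72 h was left out by the authors as an outlier.

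As background, initiation starts when eIF2, carrying GTP and the initiator tRNA, joins the small ribosomal subunit together with eIF1, eIF1A, eIF3 and eIF5. The mRNA is brought in by eIF4F, in which eIF4E binds the cap, eIF4A unwinds RNA and eIF4G is the scaffold. eIF4E-binding proteins (4E-BPs) keep eIF4E from eIF4G until mTORC1, a nutrient-sensing kinase complex, phosphorylates them. eIF2B recharges eIF2 with GTP, and phosphorylation of eIF2 by stress kinases blocks that step, which lowers general translation and favours a few mRNAs such as that of the transcription factor ATF4. Afterwards eEF1A delivers aminoacyl-tRNAs, eEF1B recharges eEF1A, and eEF2 moves the ribosome along. RNA levels report none of these activities directly.

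Promoter sequence from RefSeq (mouse GRCm38.p6, a build other than the GRCm39 that the submitters name) was found for 46 of the 59 genes. Letters CACGTG, the E-box that MYC and related factors can bind, searched on both strands in windows of 250 bases before to 50 bases after each annotated start, were present in 15 of 58 promoters of these genes (25.9%) and in 7.15% of 32851 promoters of all genes. By gene these shares were 13 of the 46 genes of the family with a promoter (28.3%), and 8.09% of all 27025 genes with one. The set of all genes was not limited to those detected in these cells, as the family was. Letters TGATGNAA, which occur in elements bound by ATF4, were present in the promoter of 1 gene of the family, Eif2s3x (1.72% of its promoters, against 3.97% of all promoters). A C followed by 4 pyrimidines, within 5 bases of an annotated start, was present in 19% of the family's promoters and 18.3% of all promoters. These are matches of letters and not shown binding. The 100 bases before an annotated start are given for 3 genes whose levels are described further on, with the E-box in capitals. They were chosen after their values were seen. The choice took 2 that were lower and 1 that was higher in 27HC-sEV cells than in DMSO-sEV cells. Their opposite directions thus came from that choice, and any link of the letters to direction was not tested. Eif4e (chr3:138527168-138527267, plus strand, before 1 of 2 annotated starts), Eif5a (chr11:69921387-69921486, minus strand, before 1 of 6 annotated starts) and Eef2 (chr10:81176531-81176630, plus strand, a single start) read, 5′ to 3′:
Eif4e: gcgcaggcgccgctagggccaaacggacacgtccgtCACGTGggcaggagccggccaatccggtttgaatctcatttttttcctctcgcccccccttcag
Eif5a: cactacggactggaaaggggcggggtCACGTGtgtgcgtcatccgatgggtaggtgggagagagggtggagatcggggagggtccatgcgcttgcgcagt
Eef2: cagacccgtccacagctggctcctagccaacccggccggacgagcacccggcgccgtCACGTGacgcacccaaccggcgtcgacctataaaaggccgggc

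Reads assigned to genes numbered between 18.79 M and 31.36 M per library. Epithelial markers named for these cells (Epcam, Krt8, Krt18, Krt7, Cdh1, Cldn4 and others) were present in every library except Krt5, which was at 0 throughout, and the 9 epithelial markers summed to 2430 to 5040 CPM. The 12 neutrophil markers summed to between 0.0933 and 1.99 CPM, with Ly6g, Mpo, Elane, Csf3r and Mmp8 at 0 in all 29 libraries. Some of these sums moved with the groups. The neutrophil sum at 48 h was 0.321 to 0.724 CPM in non-adherent 27HC-sEV, 0.154 to 0.903 in adherent 27HC-sEV and 0.0933 to 0.425 CPM in DMSO-sEV cells. At 72 h the neutrophil sum was 1.49 to 1.99 CPM in non-adherent 27HC-sEV, 1.33 to 1.92 in adherent 27HC-sEV and 0.308 to 1.01 CPM in DMSO-sEV cells. At 48 h the epithelial sum was 3110 to 3310 CPM in non-adherent 27HC-sEV, 3330 to 3950 in adherent 27HC-sEV and 4020 to 5040 CPM in DMSO-sEV cells, and 4 macrophage markers summed to 5.33 to 7.47 CPM in non-adherent 27HC-sEV, 6.33 to 9.25 in adherent 27HC-sEV and 2.76 to 3.90 CPM in DMSO-sEV cells. At 72 h the epithelial sum was 2430 to 2610 CPM in non-adherent 27HC-sEV, 2770 to 3180 in adherent 27HC-sEV and 3550 to 4580 CPM in DMSO-sEV cells. The macrophage sum was 9.35 to 10.7 CPM in non-adherent 27HC-sEV, 10.3 to 13.3 in adherent 27HC-sEV and 1.93 to 4.28 CPM in DMSO-sEV cells at 72 h, with Adgre1 at 0 throughout. Over all libraries 4 fibroblast markers summed to 6.09 to 33.3 CPM, highest in non-adherent cells at 48 h, and 3 lymphocyte markers to at most 0.165 CPM. The fibroblast sum was mostly Pdgfra, at 5.71 to 32.9 CPM, while Col1a1, Col1a2 and Dcn reached at most 0.808, 0.27 and 1.67 CPM. Of the macrophage markers Cd68 reached 9.4 CPM, Csf1r 2.44 CPM and Mrc1 1.9 CPM. The part of these markers in the results was not tested. A feature of the DMSO-sEV libraries bears on the values of the family and is given first. Replicates 1 to 3 and replicates 4 and 5 of that group did not overlap for 48 of 59 factors at 48 h (38 higher in replicates 1 to 3, 10 higher in replicates 4 and 5) and for 55 at 72 h (41 and 14). Of all genes tested, 58.0% at 48 h and 67.4% at 72 h did not overlap between those subsets either (31.3% and 38.6% higher in replicates 1 to 3, 26.6% and 28.7% higher in replicates 4 and 5). Eef1a1, for example, had 30577 to 35289 CPM in DMSO-sEV replicates 1 to 3 at 72 h and 20338 and 20684 CPM in replicates 4 and 5. For many of the factors described below, fold changes against one subset of DMSO-sEV libraries are given. This was done where that subset ended the call, turned the sign or moved the value by over 1.5 times, but not in every such case. The same was done for a correction for transcript length and GC content (offsets), since differences between libraries varied with both. The part of these library differences in the results was not tested.

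All fold changes below are log2 values from edgeR's quasi-likelihood test with their standard error, and a gene is called higher or lower when its Benjamini-Hochberg adjusted p over 13008 genes was under 0.05. In bulk RNA, fewer cells of a kind and less RNA per cell cannot be told apart.

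The family made up 3.90% ± 0.13 of reads in non-adherent 27HC-sEV cells, 4.84% ± 0.202 in adherent 27HC-sEV cells and 3.98% ± 0.115 in DMSO-sEV cells at 48 h (SD, n = 5 each). At 72 h the shares were 4.46% ± 0.074 in non-adherent 27HC-sEV cells (SD, n = 4), 5.06% ± 0.206 in adherent 27HC-sEV cells and 4.88% ± 0.402 in DMSO-sEV cells (SD, n = 5 each). Eef1a1, the eEF1A isoform of proliferating cells, made up 43.7% ± 0.68 of the family's CPM in non-adherent 27HC-sEV cells, 50.1% ± 2.42 in adherent 27HC-sEV cells and 42.1% ± 1.83 in DMSO-sEV cells at 48 h (SD, n = 5 each). Its paralog Eef1a2, the muscle and neuron isoform, was at 0 in every library. Per kilobase of transcript, and averaged over all groups, Eef1a1 was at 12310 CPM per kb, followed by Eef2 at 1241, Eef1g at 720.7, Eif5a at 678.0 and Eif1 at 637.5 CPM per kb. The lowest were Eef1aknmt, which methylates eEF1A, at 4.67 and the second eIF5A gene, Eif5a2, at 3.99 CPM per kb. Eef1a1 and several other members have processed pseudogenes with nearly the same sequence, so their counts depend on how reads were shared among copies.

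In adherent 27HC-sEV cells at 48 h, 13 of the 59 factors were higher and 17 were lower than in adherent DMSO-sEV cells. Over all 13008 genes tested, 21.3% were higher and 22.7% were lower in that comparison, so the share of factors called was near the background. The median log2 fold change of the 59 was -0.08 (0.045 against DMSO-sEV replicates 4 and 5 alone) and no factor changed by more than 2-fold, apart from Eif4ebp1 against replicates 4 and 5 alone. Both directions occurred within the same complex, as the first column of the map of fold changes by complex shows.

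**Figure D1:**
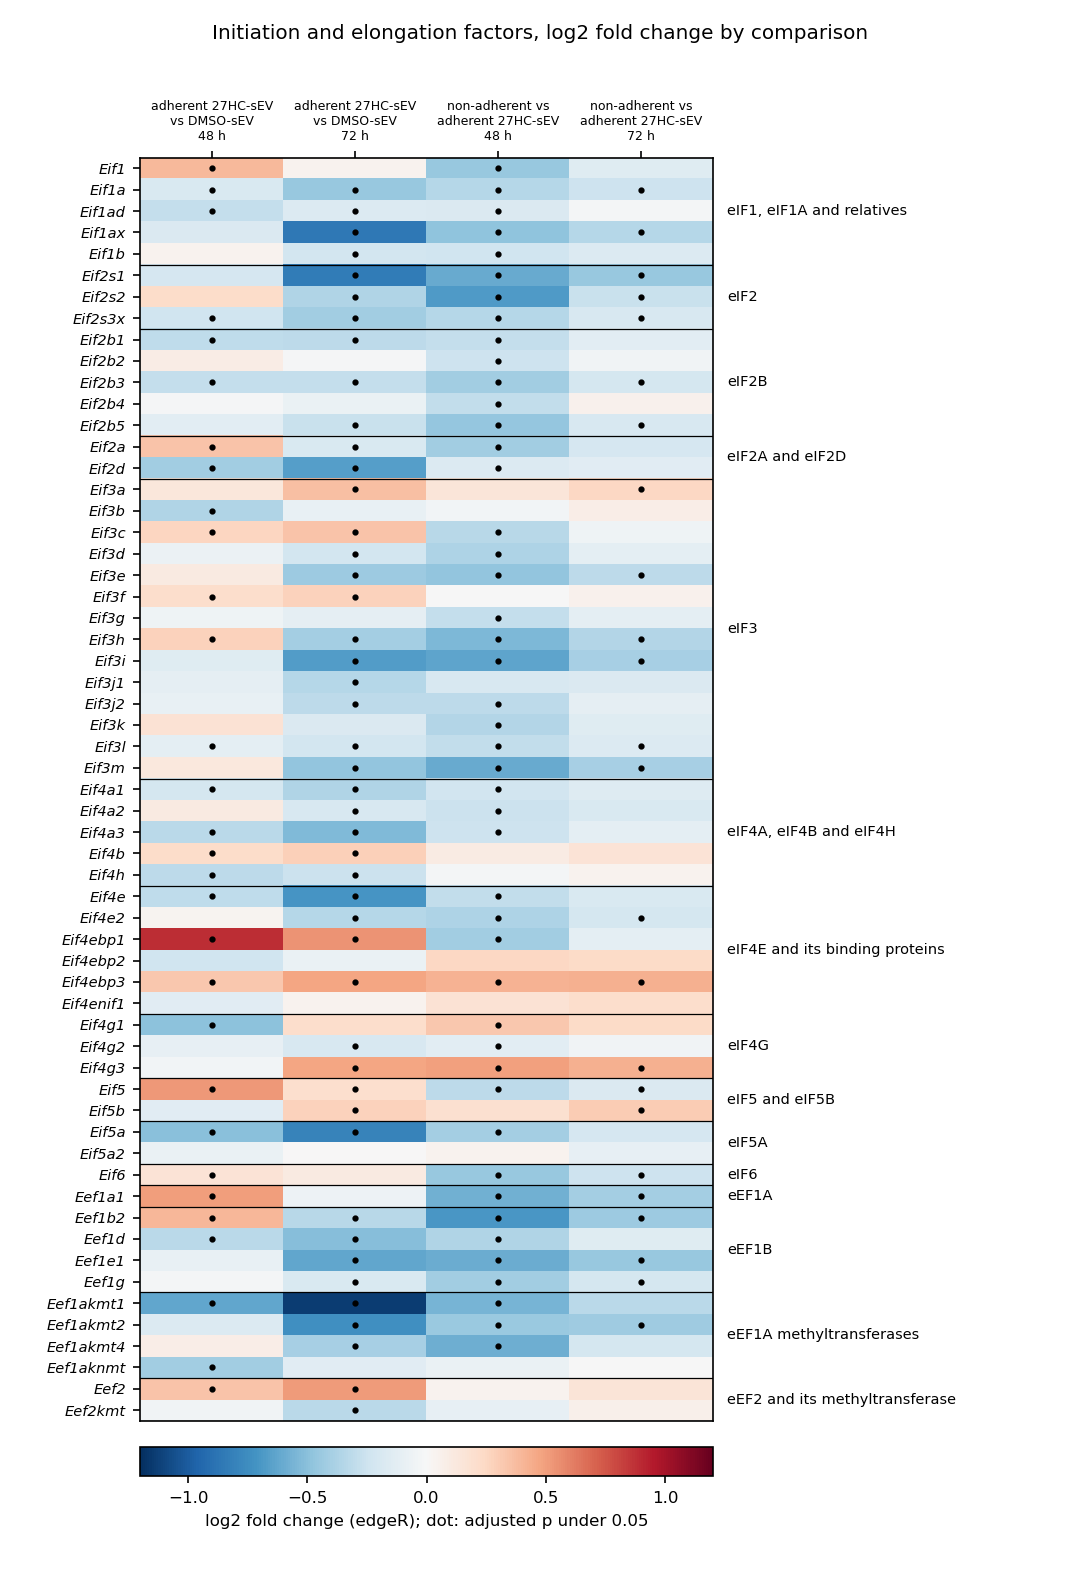
Log2 fold change of each of the 59 factors (rows, grouped by complex) in 4 comparisons (columns), with red for higher and blue for lower in the first-named group. A dot marks an adjusted p under 0.05. Eif4ebp1 is the darkest red cell (0.89 in adherent 27HC-sEV cells at 48 h) and Eef1akmt1 the darkest blue one (-1.14 at 72 h). Most cells of the third column, non-adherent against adherent cells at 48 h, are blue.

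The largest increase was in Eif4ebp1, which encodes 4E-BP1, the main repressor of eIF4E. It had 83.2, 82.0, 78.9, 81.0 and 75.5 CPM in the 5 adherent 27HC-sEV libraries at 48 h, against 45.7, 44.2, 46.1, 43.7 and 37.0 CPM in the DMSO-sEV libraries. The groups were far apart, and the log2 fold change was 0.89 ± 0.06 (adjusted p = 2.23e-12, edgeR), or 0.82 against DMSO-sEV replicates 1 to 3 alone and 1.004 against replicates 4 and 5 alone. Eif4e, its target, went the other way: 224, 257, 245, 245 and 248 CPM in adherent 27HC-sEV cells, against 312, 302, 315, 276 and 302 CPM in DMSO-sEV cells. Those libraries did not overlap either, at a log2 fold change of -0.31 ± 0.07 (adjusted p = 0.000543, edgeR). Eif4ebp3, a low-level relative, was higher (0.32 ± 0.09) and Eif4ebp2 was at -0.23 ± 0.12 without passing, but at -0.465 with an adjusted p of 2.64e-05 against DMSO-sEV replicates 4 and 5 alone.

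Because both genes were counted in the same libraries, their ratio per kilobase can be given for each one. Eif4ebp1 over Eif4e was 0.76 to 0.927 in adherent 27HC-sEV cells at 48 h, against 0.307 to 0.395 in DMSO-sEV cells. At 72 h it was 0.83 to 0.928 in adherent 27HC-sEV cells, against 0.353 to 0.400 in DMSO-sEV cells. Non-adherent 27HC-sEV cells were at 0.702 to 0.806 at 48 h and 0.889 to 1.004 at 72 h. Every 27HC-sEV library of either fraction and time thus lay above every DMSO-sEV library, and the DMSO-sEV replicates 4 and 5 did not stand apart in the ratio at 48 h, with values of 0.395 and 0.307 on both sides of the others (0.366 each). At 72 h they were the highest of their group, at 0.400 and 0.392. With all 3 binding proteins summed, the mean ratio was 1.124 in adherent 27HC-sEV cells and 0.594 in DMSO-sEV cells at 48 h, and 1.21 in adherent 27HC-sEV cells and 0.548 in DMSO-sEV cells at 72 h.

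**Figure D2:**
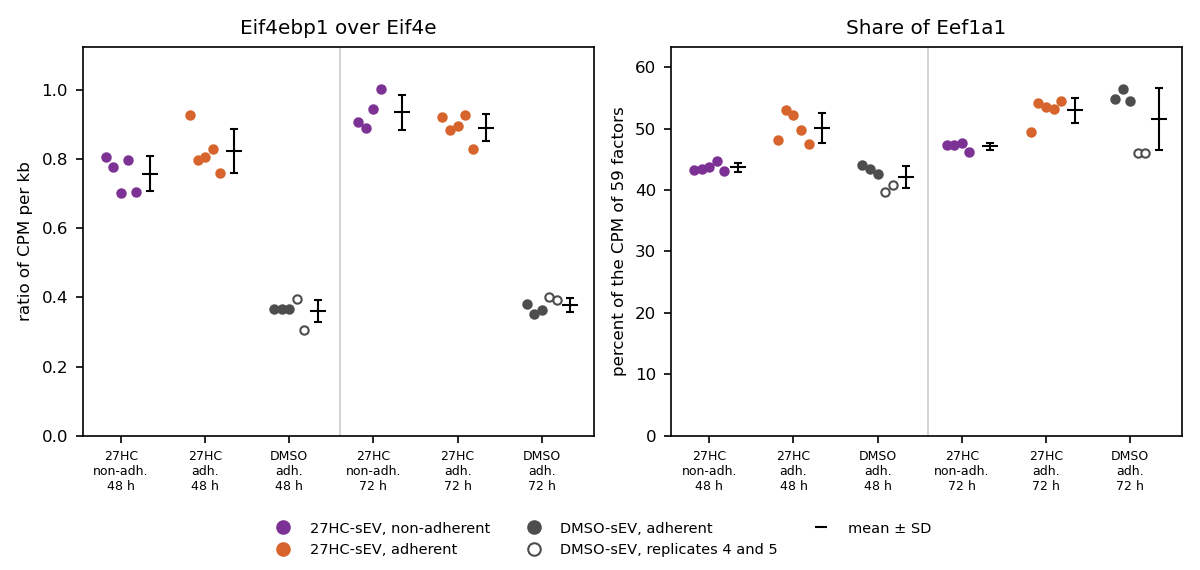
Left, ratio of Eif4ebp1 to Eif4e in CPM per kb in each library, by group and time. Right, Eef1a1 as a percent of the CPM of the 59 factors. Points are libraries (open for DMSO-sEV replicates 4 and 5) and bars are mean ± SD. The ratio is between 0.702 and 1.004 in all 27HC-sEV libraries and between 0.307 and 0.400 in all DMSO-sEV libraries.

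Among the other cap-binding partners, Eif4g1, the main scaffold of eIF4F, was lower in adherent 27HC-sEV cells at 48 h, with 731, 580, 611, 672 and 728 CPM against 877, 907, 931, 1026 and 945 CPM in DMSO-sEV cells. The libraries did not overlap (log2 fold change -0.50 ± 0.10, adjusted p = 0.000151, edgeR). The helicase Eif4a1 was also lower (-0.21 ± 0.06, adjusted p = 0.00871, edgeR), though against DMSO-sEV replicates 4 and 5 alone it was at -0.06 with an adjusted p of 0.299, and without DMSO-sEV replicate 2 its adjusted p was 0.0518. Its paralog Eif4a2 was at 0.11 ± 0.09 and did not pass. Eif4a3, an exon junction complex protein, and Eif4h, a cofactor of eIF4A, were lower (-0.32 and -0.31, Eif4a3 at -0.17 against DMSO-sEV replicates 4 and 5), and the other cofactor, Eif4b, was higher (0.22 ± 0.06).

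Factors that act at the start codon were split as well. Eif5, which makes eIF2 hydrolyse its GTP, had 1127, 1154, 1129, 1138 and 1090 CPM in adherent 27HC-sEV cells at 48 h, against 790, 776, 803, 767 and 792 CPM in DMSO-sEV cells. The gap between the groups was many times the spread within either, and the log2 fold change was 0.52 ± 0.05 (adjusted p = 4.92e-10, edgeR). Eif1, which guards start codon selection, was higher by 0.39 ± 0.07 (adjusted p = 5.06e-05, edgeR), or by 0.29 against DMSO-sEV replicates 1 to 3 and 0.57 against replicates 4 and 5. The related Eif1a and Eif1ad were lower (-0.19 and -0.28), and Eif1ax (-0.18 ± 0.11) and Eif1b (0.04 ± 0.08) did not pass.

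Of the 3 eIF2 subunits, Eif2s3x (gamma, on the X chromosome) was lower (-0.24 ± 0.04), while Eif2s1, the alpha subunit that stress kinases phosphorylate, was at -0.20 ± 0.12 and Eif2s2 (beta) at 0.22 ± 0.09. Neither of those 2 passed (adjusted p = 0.18 and 0.0513, edgeR), though Eif2s1 was lower against DMSO-sEV replicates 1 to 3 (-0.30) and Eif2s2 was higher against replicates 4 and 5 (0.37). Of the 5 eIF2B subunits, Eif2b1 and Eif2b3 were lower (-0.30 and -0.29) and the others did not pass, Eif2b5, the catalytic subunit, being at -0.13 ± 0.06. Eif2b1 was at -0.16 against DMSO-sEV replicates 4 and 5 alone, where Eif2b3 was at -0.13 and did not pass (adjusted p = 0.124). Eif2b5 was lower against replicates 1 to 3 (-0.19, adjusted p = 0.00148, edgeR) and at -0.02 against replicates 4 and 5. Of the alternative initiation factors, Eif2a was higher (0.34 ± 0.07) and Eif2d was lower (-0.42 ± 0.05, adjusted p = 1.12e-07, edgeR). Of the 14 eIF3 subunit genes, which form the largest initiation complex, Eif3c, Eif3f and Eif3h were higher (0.26, 0.21 and 0.27), Eif3b and Eif3l were lower (-0.36 and -0.11), and the other 9 did not pass, among them Eif3a at 0.13 ± 0.09. Eif3h did not pass against DMSO-sEV replicates 1 to 3 (0.16, adjusted p = 0.0789), nor did Eif3l against replicates 4 and 5 (-0.02, adjusted p = 0.758). Eif3a was higher against replicates 1 to 3 (0.26, adjusted p = 0.00075, edgeR) and at -0.025 against replicates 4 and 5 (adjusted p = 0.776, edgeR).

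Eif5a, whose product lets ribosomes pass difficult peptide bonds and carries the modified residue hypusine, was lower. It had 919, 983, 896, 904 and 871 CPM in adherent 27HC-sEV cells at 48 h, against 1367, 1372, 1349, 1200 and 1193 CPM in DMSO-sEV cells. All 27HC-sEV libraries were below all DMSO-sEV libraries, at a log2 fold change of -0.50 ± 0.07 (adjusted p = 1.66e-06, edgeR). Neither Dhps nor Dohh, the enzymes that make hypusine, passed at 48 h.

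The delivery and translocation factors of elongation, eEF1A and eEF2, were higher at 48 h. Eef1a1 had 22561, 27656, 25889, 23478 and 21592 CPM in adherent 27HC-sEV cells, against 18785, 18248, 17678, 15046 and 15858 CPM in DMSO-sEV cells (log2 fold change 0.50 ± 0.11, adjusted p = 0.000565, edgeR), without overlap. Eef2 had 4297, 3680, 3823, 3944 and 4313 CPM in adherent 27HC-sEV cells, against 2902, 2975, 3087, 3424 and 3399 CPM in DMSO-sEV cells (0.35 ± 0.08, adjusted p = 0.000885, edgeR), again without overlap. Of the eEF1B exchange factor, Eef1b2 (0.40 ± 0.13) was higher and Eef1d (-0.33 ± 0.07) was lower, while Eef1g was at -0.03 ± 0.06. Eef1akmt1 and Eef1aknmt, methyltransferases of eEF1A, were lower (-0.62 ± 0.12 and -0.41 ± 0.06). Against DMSO-sEV replicates 1 to 3 Eef1b2 was at 0.28 and Eef1akmt1 at -0.74, and against replicates 4 and 5 they were at 0.62 and -0.40, with Eef1d at -0.18. Eif6, which keeps the large subunit from joining, was higher by 0.16 ± 0.06 (adjusted p = 0.0261, edgeR), but at 0.09 with an adjusted p of 0.137 against DMSO-sEV replicates 1 to 3 alone. It also did not pass without DMSO-sEV replicate 4 or 5 or adherent 27HC-sEV replicate 1 (adjusted p of 0.064 to 0.0908).

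**Figure D3:**
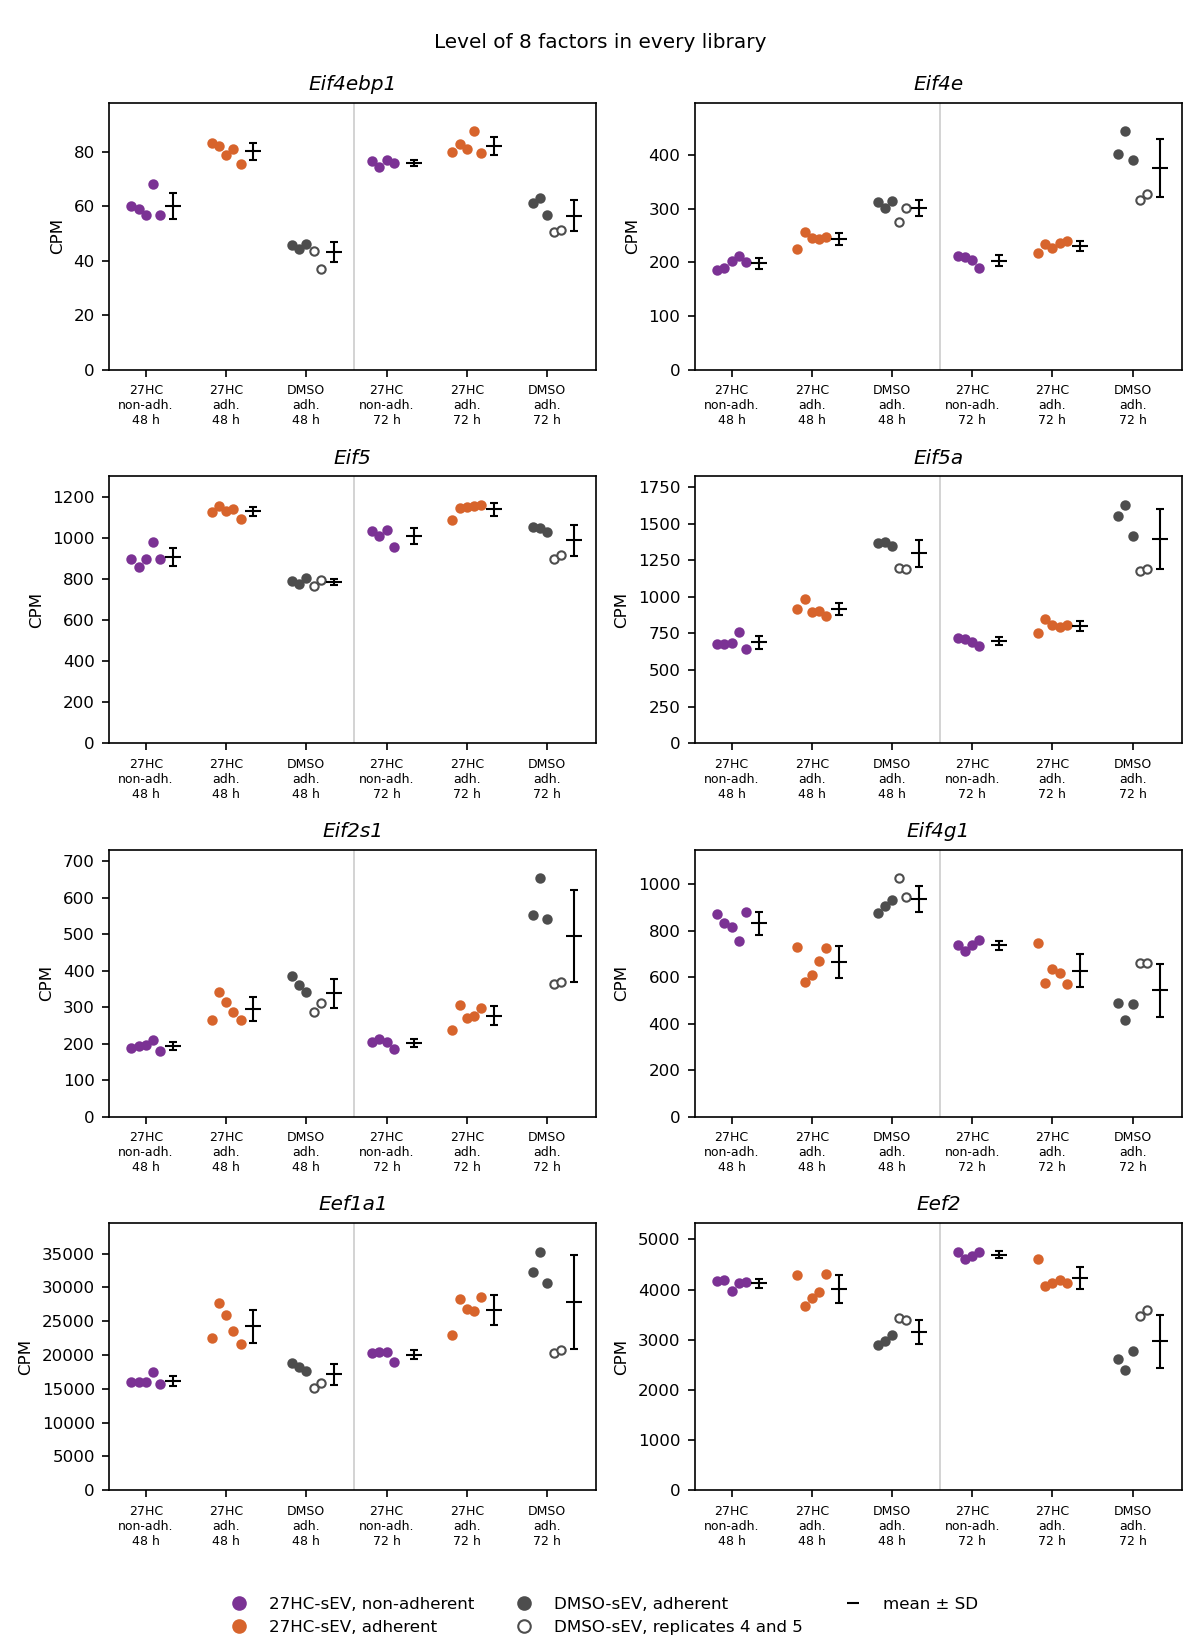
CPM of 8 factors in each library, by group and time; each axis starts at 0. Points are libraries (open for DMSO-sEV replicates 4 and 5) and bars are mean ± SD. Eif4ebp1 and Eef2 are above, and Eif4e and Eif5a below, the DMSO-sEV libraries in adherent 27HC-sEV cells at both times. In the DMSO-sEV group at 72 h the open points stand apart from the filled ones for all 8 factors, Eif2s1 and Eef1a1 among them.

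At 72 h the balance in adherent 27HC-sEV cells was on the lower side. Of the 59 factors, 10 were higher and 36 were lower than in DMSO-sEV cells, where 32.0% of all genes were higher and 33.4% were lower. The median log2 fold change of the factors was -0.22, against 0.00 for all genes tested. That balance depended on the scale and on the control libraries: with length and GC offsets 17 factors were higher and 27 lower, at a median of -0.08, where 30.5% and 34.2% of 12397 genes with a length were called. Of the 36 lower and 10 higher factors, 23 and 8 had the same call with offsets. Against DMSO-sEV replicates 4 and 5 alone, 21 factors were lower and 11 higher, where 24.7% and 29.2% of all genes were called, and the median was also -0.08. Of the 36 and 10, 18 and 7 had the same call there. Against replicates 1 to 3 alone the median was -0.33, and all 46 had the same call.

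Several single factors nonetheless held their call under every alternative fit that gave a value. Eif4ebp1 had 79.9, 82.8, 81.2, 87.6 and 79.7 CPM in adherent 27HC-sEV cells at 72 h, against 61.2, 62.9, 57.0, 50.7 and 51.3 CPM in DMSO-sEV cells (log2 fold change 0.54 ± 0.06, adjusted p = 1.81e-08, edgeR; 0.77 with offsets, and 0.445 and 0.71 against DMSO-sEV replicates 1 to 3 and 4 and 5). Eif4e had 217, 234, 227, 236 and 240 CPM in adherent 27HC-sEV cells, against 402, 445, 391, 317 and 327 CPM in DMSO-sEV cells (-0.71 ± 0.07, adjusted p = 7.63e-10, edgeR; -0.59 with offsets, and -0.84 and -0.46 against the same subsets). Both genes were without overlap, in opposite directions, as at 48 h. Eif5a had 751, 846, 808, 794 and 805 CPM in adherent 27HC-sEV cells, against 1550, 1630, 1418, 1177 and 1191 CPM in DMSO-sEV cells (-0.80 ± 0.07, adjusted p = 2.11e-10, edgeR; -0.58 with offsets, and -0.94 and -0.55 against the same subsets). Eef2 had 4606, 4063, 4133, 4180 and 4121 CPM in adherent 27HC-sEV cells, against 2612, 2404, 2768, 3464 and 3597 CPM in DMSO-sEV cells (0.51 ± 0.08, adjusted p = 3.94e-06, edgeR; 0.26 with offsets, and 0.70 and 0.27 against the same subsets). Eif5 was higher by 0.21 ± 0.05 (0.39 with offsets, and 0.13 and 0.35 against the same subsets) and Eif2d was lower by a log2 fold change of -0.66 ± 0.05 (-0.74 with offsets).

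All 3 eIF2 subunits were lower at 72 h. Eif2s1 had 238, 305, 270, 275 and 297 CPM in adherent 27HC-sEV cells, against 552, 654, 542, 363 and 371 CPM in DMSO-sEV cells. The groups did not overlap, yet the fold change was -0.84 ± 0.12 with all DMSO-sEV libraries (adjusted p = 5.72e-07, edgeR), -1.07 against replicates 1 to 3 and -0.39 against replicates 4 and 5. With offsets Eif2s1 was at -0.53. Eif2s2 (-0.36) and Eif2s3x (-0.41) were lower too, of which Eif2s2 did not pass with offsets (-0.08, adjusted p = 0.228) or against DMSO-sEV replicates 4 and 5 (-0.05, adjusted p = 0.656), and Eif2s3x was at -0.26 with offsets. Among the eIF2B subunits Eif2b1, Eif2b3 and Eif2b5 were lower (-0.31, -0.29 and -0.26); Eif2b5 was at -0.06 (adjusted p = 0.345) and Eif2b3 at -0.12 (adjusted p = 0.149) against DMSO-sEV replicates 4 and 5, and Eif2b1 was at -0.13 with offsets. Eif1ax was lower by a log2 fold change of -0.86 ± 0.11, or -1.08 against replicates 1 to 3 and -0.42 against replicates 4 and 5, and Eif1a, Eif1ad and Eif1b were lower as well (-0.45, -0.16 and -0.22). With offsets Eif1a and Eif1ad did not pass and Eif1b was higher (0.13), and against DMSO-sEV replicates 4 and 5 Eif1b was at 0.03 (adjusted p = 0.774). Eif1 itself did not pass (0.04, adjusted p = 0.648, edgeR). It was higher with offsets (0.35, adjusted p = 1.6e-09, edgeR) and against DMSO-sEV replicates 4 and 5 (0.24, adjusted p = 0.00145, edgeR). Eif2a, higher at 48 h, was lower at 72 h (-0.18 ± 0.07, adjusted p = 0.0327, edgeR) and higher with offsets (0.14, adjusted p = 0.00131), and it was at 0.07 (adjusted p = 0.382) against DMSO-sEV replicates 4 and 5.

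Of the eIF3 subunits at 72 h, Eif3a, the largest subunit, Eif3c and Eif3f were higher (0.36, 0.34 and 0.28), 8 were lower, led by Eif3i (-0.67), Eif3m (-0.47) and Eif3e (-0.43), and 3 did not pass. With offsets Eif3i was still lower (-0.44), while Eif3m was at 0.01 and Eif3e at -0.08 without passing, and Eif3j2, at -0.31 without offsets, was higher with them (0.10). Most of the eIF3 calls ended against DMSO-sEV replicates 4 and 5. Eif3a was at 0.13 (adjusted p = 0.0741) and Eif3c at 0.16 (adjusted p = 0.0627), while Eif3i (-0.19), Eif3m (-0.07), Eif3e (-0.08) and Eif3j2 (-0.10) did not pass (adjusted p of 0.0987 to 0.559). Eif4a1, Eif4a3 and Eif4h were lower (-0.36, -0.53 and -0.25) and Eif4b was higher (0.29), all with the same call under offsets (-0.20, -0.32, -0.40 and 0.20) and against DMSO-sEV replicates 4 and 5 (-0.15, -0.34, -0.28 and 0.13). Eif4a2 was lower by its call (-0.19 ± 0.09, adjusted p = 0.0477, edgeR) and higher with offsets (0.19, adjusted p = 0.000714), and at 0.05 (adjusted p = 0.668) against DMSO-sEV replicates 4 and 5. Its call ended without any 1 of 6 libraries, namely DMSO-sEV or adherent 27HC-sEV replicates 1 and 3, DMSO-sEV replicate 2 and adherent 27HC-sEV replicate 4 (adjusted p of 0.0685 to 0.271). The scaffolds differed: Eif4g2, also known as DAP5, was lower (-0.20, or -0.355 with offsets). Eif4g3 was higher (0.47 ± 0.11), at 0.01 with offsets, 0.74 against DMSO-sEV replicates 1 to 3 and 0.17 against replicates 4 and 5. Eif4g1 did not pass (0.21 ± 0.10), and was at -0.13 with offsets (adjusted p = 0.0377), 0.44 against replicates 1 to 3 (adjusted p = 2.38e-05) and -0.06 against replicates 4 and 5 (adjusted p = 0.596).

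Eef1a1 did not differ by its test at 72 h (-0.07 ± 0.11, adjusted p = 0.622, edgeR). Its 22948, 28241, 26860, 26493 and 28518 CPM in adherent 27HC-sEV cells lay between the DMSO-sEV libraries, which were at 32338, 35289 and 30577 CPM in replicates 1 to 3 and at 20338 and 20684 CPM in replicates 4 and 5. Against the first subset the fold change was -0.30 (adjusted p = 0.000324, edgeR), and against the second it was 0.39 (adjusted p = 0.000334, edgeR). Its sign thus differed with the control libraries used. With offsets and all DMSO-sEV libraries it was 0.23 (adjusted p = 0.000123, edgeR). The 4 genes grouped here as eEF1B were lower (Eef1b2 -0.33, Eef1d -0.51, Eef1e1 -0.62 and Eef1g -0.18). Eef1e1 was grouped there by its symbol, and its product is a part of the multi-tRNA-synthetase complex and not of the exchange factor. Under offsets Eef1b2 and Eef1g were at -0.02 and did not pass, and Eef1e1 was at -0.32. Against DMSO-sEV replicates 4 and 5 only Eef1d of the 4 passed (-0.28), with Eef1b2 at 0.16, Eef1e1 at -0.17 and Eef1g at 0.001. Eef1akmt1 had 11.6, 13.8, 13.9, 13.9 and 13.4 CPM in adherent 27HC-sEV cells, against 32.3, 38.3, 33.8, 20.2 and 22.8 CPM in DMSO-sEV cells. With all 5 DMSO-sEV libraries it alone changed by more than 2-fold (-1.14 ± 0.12, adjusted p = 6.17e-09, edgeR), and it was at -0.68 with offsets. Against replicates 1 to 3 it was at -1.39, and Eif1ax and Eif2s1 also passed 2-fold, while against replicates 4 and 5 it was at -0.67 and no factor passed 2-fold.

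**Figure D4:**
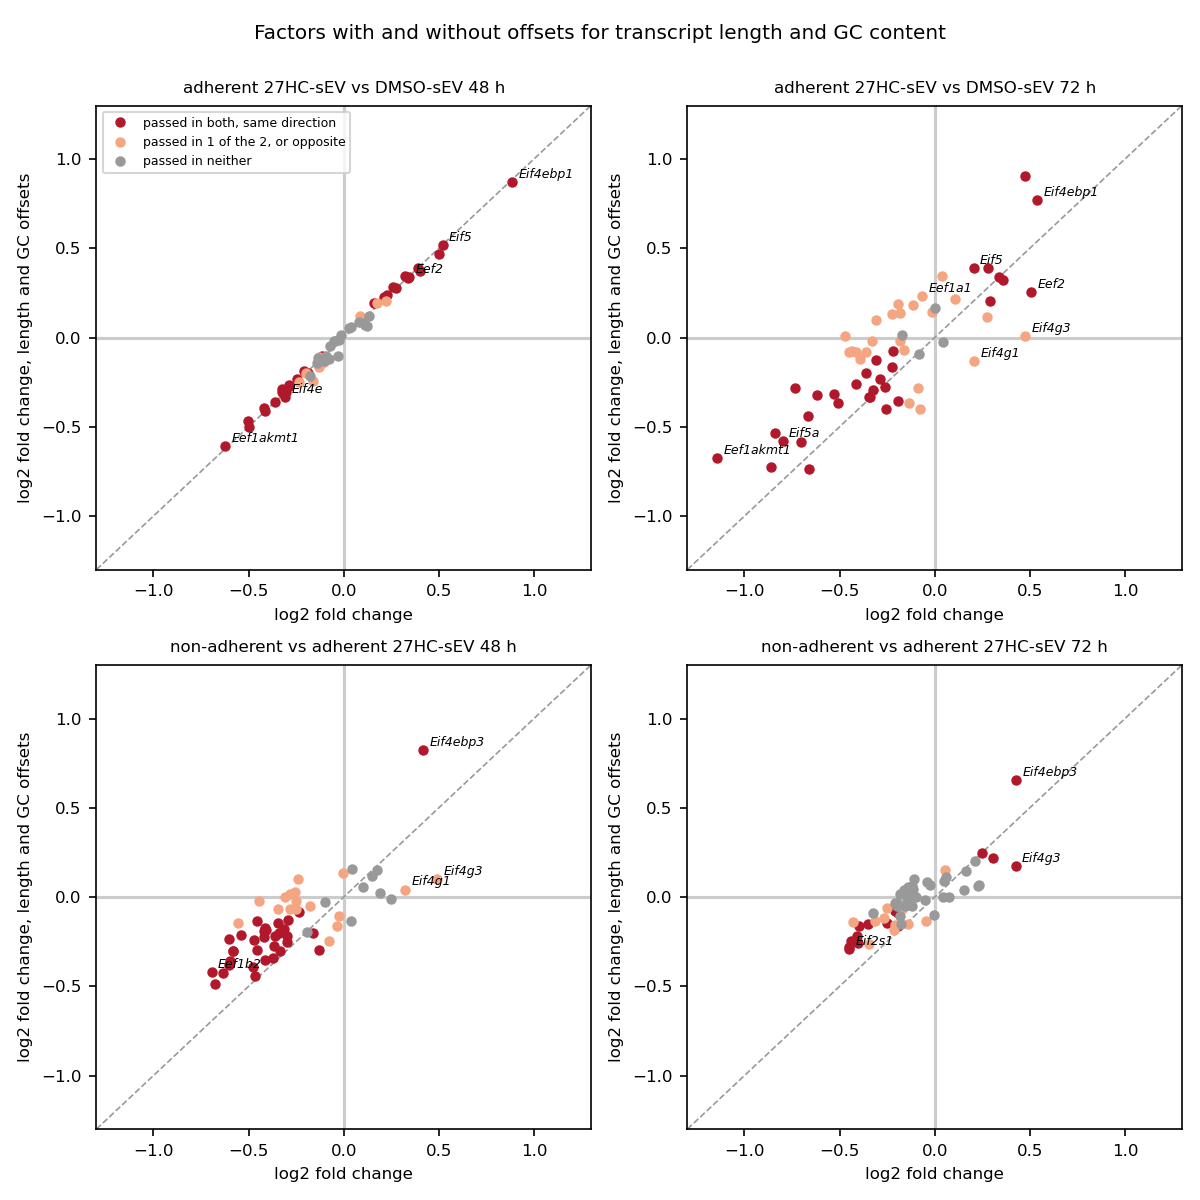
Log2 fold change of each factor without (x axis) and with (y axis) per-library offsets for transcript length and GC content, in 4 comparisons; the dashed line marks equal values. At 48 h the points of the adherent comparison lie close to the line, and at 72 h and between fractions many are nearer 0 on the y axis. Eif4g3 is at 0.47 without and 0.01 with offsets at 72 h.

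The change between the times was tested as the difference of the 2 fold changes. It passed for 29 of the 59 factors, against 37.3% of all genes, and in 24 of the 29 the fold change was lower at 72 h. Of all genes, 21.4% had a lower and 15.9% a higher fold change at 72 h by that test. With offsets it passed for 6 factors on the higher and 17 on the lower side, where 15% and 19.6% of all genes were called. Of those factors 16 were in common with the 29, and 25 of the 29 differences were closer to 0 by over 1.5 times. By smallest adjusted p, the factors were Eif4g1 (0.71 ± 0.14) and Eif5b (0.41 ± 0.12) on the higher side, and Eif2a (-0.52 ± 0.11) and Eif5 (-0.32 ± 0.07) on the lower side. With offsets they were at 0.37, 0.28, -0.20 and -0.13, and against DMSO-sEV replicates 4 and 5 at 0.50, 0.26, -0.40 and -0.20, each still passing. DMSO-sEV cells themselves changed between the times: 27 factors were higher and 11 were lower at 72 h than at 48 h, where 27.8% and 23.8% of all genes were called. With offsets 19 were higher and 16 were lower, where 24.4% and 21.6% of all genes were called, and the median was -0.002, against 0.11 without. Eif3h (0.77 ± 0.11) and Eef1b2 (0.76 ± 0.13) were the largest increases and Eif4g1 (-0.79 ± 0.10) and Eif5b (-0.51 ± 0.08) the largest decreases, at 0.45, 0.43, -0.49 and -0.40 with offsets. Eef1a1 had 32338, 35289, 30577, 20338 and 20684 CPM at 72 h against 18785, 18248, 17678, 15046 and 15858 CPM at 48 h. In adherent 27HC-sEV cells none was higher and 2 were lower at 72 h than at 48 h, namely Eif3c (-0.23 ± 0.07) and Eif2s3x (-0.14 ± 0.04), where 6.58% and 6.54% of all genes were called. Both calls ended when 1 library was left out, for any of 7 libraries for Eif3c and 4 for Eif2s3x (adjusted p up to 0.103 and 0.0756). Against DMSO-sEV replicates 4 and 5 alone, 18 factors passed the test of the change between times. Of these, 3 were on the higher and 15 on the lower side, where 12.3% and 10.8% of all genes were called.

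Between the 2 fractions of 27HC-sEV cells, more of the factors were lower than higher in non-adherent cells. At 48 h, 43 of 59 were lower and 3 were higher in non-adherent than in adherent cells, where 28.4% of all genes were lower and 25.7% were higher. The median log2 fold change was -0.31, against 0.00 for all genes. With length and GC offsets, 35 were lower and 2 were higher at a median of -0.175, where 24.1% and 20.8% of all genes were called, and 32 factors were lower in both fits. Of the 46 calls, 33 were closer to 0 by over 1.5 times with offsets. Neither group of that comparison contains the DMSO-sEV libraries, and libraries of the fractions did not overlap for 42 of 59 factors (39 lower and 3 higher), against 42.3% of all genes (23.2% lower and 19.1% higher).

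All 3 eIF2 subunits, all 5 eIF2B subunits and all 5 genes of the eIF1 and eIF1A group were lower. So were all 4 genes grouped as eEF1B (Eef1e1 among them) and 10 of 14 eIF3 genes. With offsets all 3 eIF2, all 4 eEF1B-group, 3 of 5 eIF2B and 2 of 5 eIF1 and eIF1A genes were lower. Of the eIF3 genes 9 of 14 were lower with offsets, and 1, Eif3f, was higher. Eif2s2 had 317, 298, 307, 347 and 324 CPM in non-adherent cells, against 469, 579, 547, 490 and 464 CPM in adherent cells, without overlap (-0.68 ± 0.09, adjusted p = 1.53e-06, edgeR; -0.49 with offsets). Eif2s1 had 187, 193, 196, 211 and 181 CPM in non-adherent cells, against 264, 341, 313, 288 and 266 CPM in adherent cells (-0.61 ± 0.12, adjusted p = 0.000149, edgeR; -0.38 with offsets). Libraries of the fractions did not overlap for either eIF2 subunit. Eif2b5 was lower by a log2 fold change of -0.47 ± 0.06 (-0.44 with offsets). Of the eIF3 genes, Eif3i had 93.8, 92.1, 102, 110 and 88.9 CPM in non-adherent cells, against 135, 173, 163, 146 and 138 CPM in adherent cells (-0.64 ± 0.13, adjusted p = 0.000167, edgeR; -0.42 with offsets). Eif3m, Eif3h and Eif3e had log2 fold changes of -0.60, -0.54 and -0.47 (-0.24, -0.215 and -0.24 with offsets), while Eif3a (0.15), Eif3b (-0.04), Eif3f (-0.01) and Eif3j1 (-0.20) did not pass.

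Of the elongation factors, Eef1a1 and the genes grouped as eEF1B were lower. So were 3 of 4 eEF1A methyltransferase genes (2 of 4 with offsets), while neither Eef2 nor its methyltransferase gene Eef2kmt passed. Eef1a1 had 15940, 15965, 15933, 17492 and 15679 CPM in non-adherent cells, against 22561, 27656, 25889, 23478 and 21592 CPM in adherent cells (-0.58 ± 0.11, adjusted p = 0.000133, edgeR; -0.30 with offsets). Eef1b2 had 781, 784, 768, 858 and 693 CPM in non-adherent cells, against 1133, 1454, 1408, 1203 and 1084 CPM in adherent cells, the largest decrease of the family without offsets (-0.69 ± 0.13, adjusted p = 0.000112, edgeR; -0.42 with offsets). Both were without overlap. Eef2 had 4167, 4185, 3971, 4139 and 4153 CPM in non-adherent cells, against 4297, 3680, 3823, 3944 and 4313 CPM in adherent cells, so that the groups overlapped (0.04 ± 0.08, adjusted p = 0.699, edgeR). The ratio of Eef2 to Eef1a1 per kilobase was 0.137 to 0.154 in non-adherent cells, against 0.0773 to 0.116 in adherent cells.

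Other members that were lower in non-adherent cells at 48 h were Eif1 (-0.45 ± 0.07), Eif6 (-0.45 ± 0.06), Eif4ebp1 (-0.42 ± 0.06), Eif5a (-0.41 ± 0.07), Eif5 (-0.32 ± 0.05), Eif4e (-0.30 ± 0.07), Eif4a2 (-0.26 ± 0.09) and Eif4a1 (-0.23 ± 0.06). With offsets Eif4a2 was at 0.03 and did not pass, nor did it without adherent replicate 2 (adjusted p = 0.0583), and the other 7 kept their call at smaller fold changes. Eif1 was at -0.14, Eif6 at -0.30, Eif4ebp1 at -0.175, Eif5a at -0.18, Eif5 at -0.18, Eif4e at -0.22 and Eif4a1 at -0.09 with offsets. The 3 genes that were higher were Eif4g3 (0.49 ± 0.11), Eif4g1 (0.32 ± 0.10) and Eif4ebp3 (0.42 ± 0.09). Of those, Eif4g3 and Eif4g1 did not pass with offsets (0.10 and 0.04), and Eif4ebp3, at 7.65 to 9.11 CPM in non-adherent cells against 5.85 to 6.81 CPM in adherent cells, was at 0.82 with offsets.

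At 72 h the same comparison gave fewer calls: 20 factors were lower and 4 were higher in non-adherent than in adherent cells, where 12.8% and 14.7% of all genes were called. The median was -0.15. Offsets left 13 lower and 5 higher, at a median of -0.04 and with 9.7% and 11.2% of all genes called. Non-adherent and adherent libraries did not overlap for 41 of 59 factors (34 lower and 7 higher), against 34.3% of all genes (16.3% lower and 18.0% higher), in groups of 4 and 5. The count of lower factors was sensitive to single libraries, at 6 without replicate 4 of the non-adherent group and 9 without replicate 2 of the adherent group. It was 10 without adherent replicate 5 or non-adherent replicate 3, 11 without non-adherent replicate 1, and at most 24 with any 1 library left out. With the replicate number as a block the count was 33, and in a fit of only the groups compared it was 36. The share of all genes called in these fits was not counted.

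Led by size, the lower ones at 72 h were Eef1e1 (-0.45 ± 0.12), Eif2s1 (-0.45 ± 0.13), Eef1b2 (-0.44 ± 0.14) and Eef1akmt2 (-0.43 ± 0.14). Eef1e1 had 46.2, 46.3, 44.5 and 40.7 CPM in non-adherent cells, against 51.2, 69.8, 59.6, 58.7 and 65.2 CPM in adherent cells, without overlap (adjusted p = 0.011, edgeR). Eef1a1 had 20332, 20381, 20481 and 19002 CPM in non-adherent cells, against 22948, 28241, 26860, 26493 and 28518 CPM in adherent cells (-0.41 ± 0.12, adjusted p = 0.0159, edgeR), also without overlap. Eef1a1, Eif2s1, Eef1e1 and Eef1b2 kept their call with offsets (-0.22, -0.29, -0.28 and -0.25), and Eef1akmt2 did not (-0.14, adjusted p = 0.116). Eif6 (-0.25 ± 0.06), Eif2b5 (-0.19 ± 0.07) and Eif5 (-0.17 ± 0.05) were lower too (Eif6 at -0.14 with offsets), of which Eif5 did not pass with offsets (-0.07) or without non-adherent replicate 4 (adjusted p = 0.0605). Without adherent replicate 2 or 5 or non-adherent replicate 4, none of Eef1b2, Eef1akmt2 and Eif2b5 passed (adjusted p up to 0.0995). Eef1b2 and Eef1akmt2 also did not pass without non-adherent replicate 1, nor Eef1akmt2 and Eif2b5 without non-adherent replicate 3. Eif4g3 (0.42 ± 0.12), Eif5b (0.31 ± 0.09), the GTPase that joins the subunits, Eif3a (0.25 ± 0.09) and the low-level Eif4ebp3 (0.43 ± 0.09) were higher, and these 4 kept their call with offsets (0.175, 0.22, 0.25 and 0.66). Eif3a had an adjusted p of 0.0498, and it no longer passed when any of 8 libraries was left out (largest adjusted p 0.111). Eif4ebp1 (-0.11), Eif5a (-0.20), Eif4e (-0.18) and Eef2 (0.15) did not pass.

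Whether the gap between fractions changed between 48 and 72 h was tested as well, and passed for 2 factors, Eif3d (0.25 ± 0.07, adjusted p = 0.0297, edgeR) and Eif4ebp1 (0.30 ± 0.09, adjusted p = 0.0492, edgeR), against 4.60% of all genes. Neither call held throughout: that of Eif3d ended without any 1 of 7 libraries (adjusted p up to 0.0804) and that of Eif4ebp1 without any 1 of 16 (up to 0.0993). Within non-adherent cells, 11 factors were higher and none was lower at 72 h than at 48 h, where 5.70% and 6.91% of all genes were called. They included Eif4ebp1, with 76.8, 74.5, 76.9 and 75.9 CPM at 72 h against 60.1, 58.9, 56.8, 68.0 and 56.6 CPM at 48 h (0.34 ± 0.07, adjusted p = 0.000659, edgeR), and Eif2s2 (0.33 ± 0.10, adjusted p = 0.026, edgeR; up to 0.0721 without non-adherent replicate 2 or 3 at 48 h or 1, 2 or 3 at 72 h). That count was between 3 and 5 without non-adherent replicate 1, 2, 3 or 5 at 48 h, and between 3 and 7 without any 1 of the 4 libraries at 72 h. It was at most 12 with any 1 library left out, and 26 in a fit of only the groups compared. The share of all genes called in those fits was not counted.

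Non-adherent 27HC-sEV cells were also set against DMSO-sEV cells. That comparison shares its groups with those above, so its values are given beside them and not as further evidence. At 48 h, 38 factors were lower and 8 were higher (33.4% and 33.2% of all genes). At 72 h, 40 were lower and 11 were higher (36.2% and 38.3% of all genes). With offsets these were 37 lower and 12 higher at 48 h (33.6% and 31.9% of all genes). At 72 h they were 32 lower and 18 higher with offsets (34.8% and 35.3% of all genes). Eef1akmt1 was the largest decrease at both times (-1.18 ± 0.13 and -1.47 ± 0.14), followed by Eif5a at 48 h (-0.91 ± 0.07) and Eif2s1 at 72 h (-1.29 ± 0.13). With offsets Eef1akmt1 was at -0.76 at 48 h and -0.765 at 72 h, where Eif1ax (-0.99), Eif2d (-0.89) and Eif2s1 (-0.825) were lower still, and Eif5a was at -0.65 at 48 h. Against DMSO-sEV replicates 4 and 5 Eef1akmt1 was at -0.94 and -1.002 and Eif2s1 at 72 h at -0.84. Eif5a had 675, 677, 686, 757 and 645 CPM in non-adherent cells at 48 h and 719, 715, 694 and 664 CPM at 72 h, in each case below every adherent library of either kind at the same time. Of the increases, Eif4ebp1 was at 0.47 ± 0.06 at 48 h, Eef2 at 0.66 ± 0.09 at 72 h, and Eif4g3 at 0.46 ± 0.11 and 0.90 ± 0.12. With offsets Eif4ebp1 was at 0.70, Eef2 at 0.30 and Eif4g3 at -0.002 and 0.18, and against DMSO-sEV replicates 4 and 5 Eef2 was at 0.425 and Eif4g3 at 0.27 and 0.59.

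Summed over the members of a complex, the order of the 3 kinds of cells at 48 h differed by complex. eIF2 summed to 1019 ± 29 CPM in non-adherent 27HC-sEV, 1446 ± 91 in adherent 27HC-sEV and 1534 ± 101 CPM in DMSO-sEV cells (SD, n = 5 each). Adherent cells of both kinds were within their spread of each other there, and non-adherent cells were below. eIF5A gave 3 separate levels, at 708 ± 40 in non-adherent 27HC-sEV, 934 ± 41 in adherent 27HC-sEV and 1316 ± 90 CPM in DMSO-sEV cells. eIF5 with eIF5B was highest in adherent 27HC-sEV cells, at 1188 ± 50 CPM in non-adherent 27HC-sEV, 1375 ± 13 in adherent 27HC-sEV and 1057 ± 19 CPM in DMSO-sEV cells. eEF2 with its methyltransferase was at 4132 ± 86 CPM in non-adherent 27HC-sEV and 4022 ± 283 in adherent 27HC-sEV cells, which were within their spread of each other, and at 3168 ± 241 CPM in DMSO-sEV cells.

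The regulators of these factors were followed as a list of 60 genes outside the family, of which 59 were tested. In adherent 27HC-sEV cells against DMSO-sEV cells, 13 were higher and 24 were lower at 48 h, where 21.3% and 22.7% of all genes were called, and 18 were higher and 29 were lower at 72 h, where 32.0% and 33.4% were called. The share of regulators that were higher was near the background at both times. Against DMSO-sEV replicates 4 and 5 alone 17 were lower at 72 h, where 24.7% of all genes were lower. Of the 10 eIF2 kinase and phosphatase genes, 3 were higher and 3 were lower at 48 h, and 5 were higher and 4 were lower at 72 h. The largest increase was in Ppp1r15a. Ppp1r15a, also known as GADD34, the subunit that brings a phosphatase to eIF2, averaged 37.55 ± 3.61 CPM in adherent 27HC-sEV cells and 9.14 ± 0.79 CPM in DMSO-sEV cells at 48 h (SD, n = 5 each), a log2 fold change of 2.04 ± 0.09 (adjusted p = 9.59e-17, edgeR), and 1.66 ± 0.09 at 72 h. Sesn2, an inhibitor of mTORC1, was higher by 1.66 ± 0.13 and 1.36 ± 0.13, and Eif2ak3, the eIF2 kinase PERK of the endoplasmic reticulum, by 0.89 ± 0.10 and 1.29 ± 0.11. Pdcd4, which holds eIF4A, was higher at 48 h (0.96 ± 0.05). Eif2ak4, the amino acid-sensing eIF2 kinase GCN2 (-0.45 ± 0.08), the scanning helicase Dhx29 (-0.37 ± 0.07) and Mcts2 (-0.36 ± 0.14) were the largest decreases at 48 h. Mcts2 did not pass at 48 h without any 1 of 5 libraries (DMSO-sEV replicates 1 and 2 and adherent 27HC-sEV replicates 1, 3 and 5; adjusted p up to 0.133). At 72 h they were Dph3 and Dnajc24 (-0.76 ± 0.13 and -0.73 ± 0.14), which serve the diphthamide modification of eEF2, and Mcts2 (-0.65 ± 0.14). With offsets Dnajc24 was at -0.33, Dph3 at -0.60 and Mcts2 at -0.22, without passing (adjusted p = 0.0623). Dph3 was also at -0.33 against DMSO-sEV replicates 4 and 5 alone. Mcts2 (at either time) and Dnajc24 (at 72 h) did not pass against DMSO-sEV replicates 4 and 5 alone (adjusted p = 0.3, 0.0905 and 0.0654). Both hypusine enzymes were lower at 72 h, Dhps by a log2 fold change of -0.40 ± 0.11 (-0.17 with offsets) and Dohh by -0.22. Neither passed against DMSO-sEV replicates 4 and 5 (-0.14 and 0.08, adjusted p = 0.33 and 0.42).

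Between fractions, 7 regulators were higher and 22 were lower in non-adherent than in adherent cells at 48 h, where 25.7% and 28.4% of all genes were called. At 72 h 12 were higher and 10 were lower, where 14.7% and 12.8% were called. At that time 7 were higher with offsets, where 11.2% of all genes were higher. The count of higher ones was also 7 without adherent replicate 2 or non-adherent replicate 1, and 6 without non-adherent replicate 4. Without non-adherent replicate 3, 6 were lower, and in a fit of only the groups compared 16 were lower. For these fits without a library or with only those groups, the share of all genes called was not counted. Deptor, an inhibitor of mTOR, averaged 85.7 ± 5.04 CPM in non-adherent cells and 43.5 ± 3.84 CPM in adherent cells at 48 h (SD, n = 5 each), a log2 fold change of 0.98 ± 0.08 (adjusted p = 3.27e-10, edgeR), and 0.48 ± 0.09 at 72 h. Ddit4, another inhibitor of mTORC1, was lower (-0.63 ± 0.05), as were the hypusine enzyme Dhps (-0.52 ± 0.11, or -0.27 with offsets) and the re-initiation factor Mcts1 (-0.50 ± 0.10), the last at -0.02 with offsets. Mtor (0.45 ± 0.08) and its partner Rptor (0.38 ± 0.07) were higher, at 0.01 each with offsets. At 72 h Tsc1 and Larp1 were higher (0.38 ± 0.10 and 0.38 ± 0.13), and Mcts1, Nck1 and Ppp1cb were lower (-0.45 ± 0.11, -0.38 ± 0.12 and -0.35 ± 0.07). Of those 5 at 72 h, Tsc1, Larp1, Mcts1 and Nck1 did not pass with offsets (adjusted p = 0.0789, 0.0912, 0.0722 and 0.0516). Larp1 also did not pass without any 1 of 8 libraries, all but adherent replicate 1 (adjusted p up to 0.0846), nor Nck1 without adherent replicate 2 or non-adherent replicate 1 or 3 (up to 0.0581).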

How the data were processed

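Deposited were estimated counts per gene and TMM-normalized log2 CPM made by the authors (per the file headers). The submitters' processing notes list Salmon 1.10.0, GRCm39 and mm39 and give no role for them. The RNA was polyadenylated, per the labels' protocols. Of the estimated counts 40.8% were not whole, and all were rounded here. Of 39253 genes, 13008 passed a low-count filter (filterByExpr of edgeR, minimum count 10, minimum total 15). The deposited log2 CPM table of 13087 genes gave the members and 1 alternative.

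A single edgeR 4.0.16 quasi-likelihood model held the 6 groups (TMM, robust; R 4.3.3). Tests were two-sided at a threshold of 0.05 after Benjamini-Hochberg adjustment across every gene tested. Standard errors are the absolute log2 fold change over the square root of F. CPM use the TMM factors. Whether replicates were separate cultures is not in the labels, so the p-values here cover the variation among these libraries alone, and that may be technical. Scripts were checked on simulated data.

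The members, lists, tests and alternatives were chosen with earlier results of these data known. The named genes were a set of 14 anchors, the 4 largest increases and decreases among called members with mean log2 CPM of at least 3 (2 of each in other pairs, by adjusted p for changes with time) and the 3 largest of each among regulators; other members appear within their complex.

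Alternatives tried were counts left unrounded; RLE or upper-quartile factors; DESeq2 1.42.0; limma-voom and limma-trend (limma 3.58.1); another low-value filter (1 CPM throughout some group) or nearly none (1 count); the replicate number as a block; fits to the compared groups alone; either subset of the DMSO-sEV libraries; each library left out; and offsets for length and GC. The offsets were fitted per library as natural splines (4 degrees of freedom each) of log2 length and GC content. Length and GC content were taken from the longest GENCODE M21 transcript (GRCm38). Genes were matched by Entrez ID, or by symbol where that gave no match, for 12397 tested genes (95.3%) and all 59 members. These lengths also served the values per kilobase.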

Additional observations from a re-analysis of the deposited data

Results flagged for a closer look

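Among 29 genes named and 174 sets of a gene and a group, 13 had a library that stood far from the others of its group, where chance alone gives about 1 in 20. In non-adherent 27HC-sEV cells at 48 h the highest libraries were Eef1a1 at 17491.59 CPM, Eif2b5 at 90.2, Eif2s3x at 521.9, Eif3a at 1144.69 and Eif6 at 128.68 CPM, and the lowest was Eef2 at 3970.69 CPM. At 72 h the lowest non-adherent library was at 19001.92 CPM for Eef1a1. In adherent 27HC-sEV cells at 72 h the lowest were Eef1akmt1 at 11.64 and Eif5 at 1083.69 CPM, and the highest were Eef2 at 4606.09, Eif3c at 516.07 and Eif4a1 at 1648.97 CPM. In DMSO-sEV cells at 48 h the lowest library of Eif4ebp1 was at 37.04 CPM.

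The fold change of adherent 27HC-sEV over DMSO-sEV cells differed between 72 and 48 h by the test of that difference for 21 named factors. It was lower at 72 h for Eef1b2 (-0.733), Eif3h (-0.686), Eif1ax (-0.68), Eif2s1 (-0.643), Eif2s2 (-0.585), Eef1akmt2 (-0.575), Eef1a1 (-0.567), Eef1e1 (-0.528), Eif3i (-0.526), Eif2a (-0.523), Eef1akmt1 (-0.52), Eif4e (-0.399), Eif1 (-0.35), Eif4ebp1 (-0.346), Eif5 (-0.316), Eif5a (-0.296), Eif2d (-0.241) and Eif2s3x (-0.171). It was higher at 72 h for Eif5b (0.406), Eif4g3 (0.503) and Eif4g1 (0.706). The fold change of non-adherent over adherent 27HC-sEV cells was higher at 72 h than at 48 h for Eif3d (0.251) and Eif4ebp1 (0.302).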

How the results depend on the processing

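Of the calls made, 25 of 30 (adherent 27HC-sEV against DMSO-sEV cells at 48 h), 22 of 46 (72 h), 32 of 46 (non-adherent against adherent cells at 48 h) and 8 of 24 (72 h) held under every alternative; the cause of the losses was not tested.

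With length and GC offsets, 17 factors (10 without) were higher in adherent 27HC-sEV than in DMSO-sEV cells at 72 h, 18 (11) in non-adherent 27HC-sEV than in DMSO-sEV cells at 72 h, and 13 (20) were lower in non-adherent than in adherent cells at 72 h. Between times, 2 (0) were higher and 11 (2) lower in adherent 27HC-sEV cells, where 8.95% and 11.3% of all genes were called with offsets. In non-adherent 27HC-sEV cells 19 (11) were higher, where 9.04% of all genes were. With offsets 9 (2) changed their gap between fractions, all on the higher side, where 2.88% of all genes were called. Signs turned with offsets for Eif4g1 (-0.133), Eif4a2 (0.188) and Eef1a1 (0.231) in adherent 27HC-sEV against DMSO-sEV cells at 72 h, Eif4a2 (0.031) between fractions at 48 h and Eif4g3 (-0.002) at 48 h in non-adherent 27HC-sEV cells set against DMSO-sEV cells. Against DMSO-sEV replicates 4 and 5 alone, Eif4a2 (0.052) and Eef1a1 (0.392) turned sign at 72 h. Against the same replicates 21 factors (36) were lower in adherent 27HC-sEV cells at 72 h, where 24.7% of all genes were lower. With time in DMSO-sEV cells 15 (27) were higher and 6 (11) lower, where 12.1% and 13.2% of all genes were called, and 18 (29) changed their response with time. Against replicates 1 to 3 alone, 27 (17) were lower at 48 h, where 27.3% of all genes were lower.

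A fit of only the groups compared gave 7 (3) and 9 (4) factors higher in non-adherent cells at 48 and 72 h, 36 (20) lower at 72 h, 4 (2) lower with time in adherent and 26 (11) higher and 2 (0) lower with time in non-adherent cells, and 10 (2) with a changed gap. That gap was called for 1 factor with upper-quartile factors or limma-trend, 7 with DESeq2 and 0 with no filter. DESeq2 gave 4 factors lower with time in adherent 27HC-sEV cells, and no filter gave 0, with 5 higher in non-adherent cells. The share of all genes called in these fits was not counted. The counts thus show how calls moved with the fit, and not a trait of the factors.

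Same-numbered libraries had correlations of -0.13 to 0.368 in their deviations from group means (mean 0.052, 18 of 70 pairs over 0.1), against a mean of -0.013 and 37 of 280 for different numbers, and 12 of 29 libraries matched best with their own number. The labels give no meaning to the number and not every same-numbered pair was over 0.1, so it was not used as a pairing. With the replicate block, 6 (3) and 8 (4) factors were higher in non-adherent cells at 48 and 72 h, and 33 (20) were lower at 72 h. In that fit 5 (2) were lower with time in adherent cells and 4 (2) changed their gap. The share of all genes called with the block was not counted, so these counts are not read as a trait of the family.

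Leaving out 1 library at a time gave 3 to 6 factors higher (6 without adherent replicate 5) and 41 to 44 lower in non-adherent cells at 48 h. At 72 h it gave 3 to 6 higher and 6 to 24 lower. With time it gave 0 to 3 lower in adherent cells and 3 to 12 higher in non-adherent cells, and 0 to 5 had a changed gap. The share of all genes called with 1 library left out was not counted.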
